A study of Homo sapiens with 36 samples.

Results

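The mRNAs examined here encode the proteins of the small (40S) ribosomal subunit. They were taken as 32 Ensembl transcript IDs of 30 genes, out of 223367 transcript IDs in the deposited table. The IDs were given as a list by symbol: the RPS genes from RPS2 to RPS29, RPSA, FAU and RACK1, with 2 IDs each for RPS3 and RPS14. All 32 IDs were in the table. The table pairs no ID with a gene name, so the symbols are those of the list, and other transcript IDs of the same genes were not analysed here. The ID of RPS9 (ENST00000302907) was listed at 0 in all 36 libraries. The other 31 IDs reached at least 1 TPM in at least 3 libraries and were tested. TPM is an abundance per unit of transcript length, with a total of 1000000 in every library.

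RNA came from HUES6, an established line of human embryonic stem cells grown in the defined medium FTDA, either unmodified (WT) or with a knockout of the RNA-binding protein RBPMS (RBPMS KO, written KO). All cells, WT and KO alike, received cycloheximide at 100 ng/ml for 5 min, which holds ribosomes on mRNAs, and lysates were resolved by polysome profiling, which separates RNAs by how many ribosomes they carry. From each genotype 3 replicates were sequenced as unfractionated Input and as 5 fractions: 40S, 80S (single ribosomes), disome, and the fractions named Polysome1 and Polysome2. This gave 12 groups of 3 libraries, and a genotype with a replicate number is called a culture below, as the sample descriptions number them (WT1, KO1). Equal amounts of RNA went into stranded mRNA libraries, so a value describes what share of a fraction's RNA a transcript makes up, whatever the fraction's total. In bulk RNA of this kind, fewer cells holding an mRNA and less of it per cell cannot be told apart. The labels do not say whether the knockout is 1 clone or whether cultures of a genotype were grown separately. The p-values therefore measure only the spread between these samples, which may be technical. In the main test this spread was pooled over all 12 groups, so the SE of a comparison within WT also rests on the KO libraries. RBPMS itself, markers of pluripotent and other cells, and large subunit protein mRNAs were not analysed here, and the knockout is taken from the labels.

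Ribosomal protein mRNAs are the best known members of the TOP class. TOP mRNAs begin with a cytosine at the cap followed by a run of pyrimidines (the 5′ terminal oligopyrimidine tract), through which growth signals acting by mTORC1 and the protein LARP1 switch them between polysomes and ribosome-free particles. Small subunit proteins surround the 18S rRNA and form the decoding site and the mRNA channel. Their mRNAs have short coding sequences, on which few ribosomes can sit at once, and a short coding sequence limits how far down a polysome gradient an mRNA can travel. Embryonic stem cells, which divide fast in culture, make them in large amounts.

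Several libraries stood apart from their groups. Transcripts with at least 1 TPM numbered from 8956 to 38389 in the 36 libraries. The lowest were WT 40S replicate 3 (8956) and KO disome replicate 1 (9867), in which 70.5% of all TPM lay in 10 transcripts. KO replicates 1 and 2 held fewer such transcripts than KO replicate 3 in each of the 6 fractions (18666 and 21914 against 31380 in Input). The Input sample of KO replicate 3 is called Input2 in its description, with no reason given in the labels. Results are given by culture for this reason, and with and without these cultures. The part of library quality in the differences between KO and WT was not tested.

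The start regions of the genes are shown first, because the pyrimidine run at the start defines the TOP class. The RefSeq table of gene starts (build GRCh38.p14) held 24 of the 30 genes. An unbroken run of at least 8 C or T, read on the gene's own strand only and touching the window of 10 bases on each side of the RefSeq start, was found in 21 of these 24 (87.5%). Such a run was held by 15.6% of all 35116 genes with a start sequence, and by 15.6% of the 22199 protein-coding genes. The longest run had a median of 10.5 bases in the 24 genes and of 4 in all genes. RPS3A, RPS4X and RPS29 had no such run in this window. A match is a description of the letters and not a mapped transcription start.

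The 9 sequences printed here cover the members that the results turn on: those whose levels in Polysome2 lay far below or above 80S (RPS27, RPS29, RPS12, RPS21, RACK1, FAU) and those that differed or were held between genotypes (RPS23, RPS24, RPS4X). Each has 30 bases, 12 before the RefSeq start and 18 from it, 5′ to 3′ on the gene's strand, with the pyrimidine run of 8 or more in capitals where there is one.
RPS27: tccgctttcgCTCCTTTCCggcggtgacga
RPS29: cgagcgcgcagctggcagcggtggttgttt
RPS12: tgcggatgaggCCTCTTTCCCTgccgccgc
RPS21: gactagctgCTTCCTTTCTCTCTCgcgcgc
RACK1: gggCTTTTCTCTCTCTCTTTCactgcaagg
FAU: cctcgCTTCTTCCTCTTTCTCgactccatc
RPS23: tgcggtgCTTCTCTCTTTCgctcaggcccg
RPS24: cgaatcgtggTTCTCTTTTCCTCCTTggct
RPS4X: gtctccagccccaatttctacgcgcaccgg
The windows lie at chr1:153990750-153990779 (plus strand) for RPS27, chr14:49598693-49598722 (minus strand) for RPS29, chr6:132814557-132814586 (plus strand) for RPS12, chr20:62387091-62387120 (plus strand) for RPS21, chr5:181243889-181243918 (minus strand) for RACK1, chr11:65122117-65122146 (minus strand) for FAU, chr5:82278337-82278366 (minus strand) for RPS23, chr10:78033851-78033880 (plus strand) for RPS24 and chrX:72277231-72277260 (minus strand) for RPS4X. RPS27, which was high in Input, and RACK1, which was low, both carry a run, and RPS29 and RPS4X do not.

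In WT Input the set took up 5.78, 6.15 and 4.21% of all TPM in the 3 libraries (mean 5.38 ± 1.03%, SD, n = 3). The members spanned a wide range of levels. RPS27, a zinc-finger protein of the subunit, was the highest, at 6399.7, 6722 and 4255 TPM (mean 5792 ± 1341). RPS29, another small zinc-binding protein, followed at 4631, 5896 and 3679.6 TPM. RPS12, a protein of the beak of the subunit, was measured at 4160.2, 4517 and 3121 TPM. The libraries of RPS27 and RPS29 overlapped, as did those of RPS29 and RPS12, so the order of these neighbours lies within the spread. RPS2, RPS20, RPS3A, RPS16 and RPS21 had means between 3074 and 3725 TPM.

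At the other end, RPS9 was listed at 0, and 4 further IDs had WT Input means under 10 TPM. The first ID of RPS3 (ENST00000278572; a protein at the mRNA entry channel with a DNA repair role) had 3.75, 1.11 and 1.40 TPM, and its other ID (ENST00000531188) had 9.47, 9.04 and 8.41 TPM. RPS26, a protein at the mRNA exit site, had 3.63, 2.64 and 2.05 TPM. RPS23, a protein at the decoding centre, had 6.19, 6.39 and 10.1 TPM. These levels belong to the listed IDs and not to the genes, since the reads of a gene are divided among its transcripts and, for ribosomal proteins, among near-identical processed pseudogenes. The 2 IDs of RPS14, a protein at the platform, show such a division: 3156, 2998 and 2207 TPM for ENST00000407193 and 131, 153 and 148 TPM for ENST00000312037. The ID of RPS18 had values identical to those of 4 other transcript IDs in all libraries, and the ID of RPS25 to those of 1 other, so their levels are uncertain.

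The 3 members that differ in kind from the rest lay in the lower part of the range. RACK1, a WD-repeat scaffold on the head of the subunit that binds kinases, had 36.7, 14.9 and 18.5 TPM in WT Input for its ID ENST00000512805. FAU, which makes RPS30 as a fusion with a ubiquitin-like protein, had 279, 187 and 204 TPM for ENST00000529639. RPS27A, a ubiquitin fusion, had 175, 101 and 122 TPM. All libraries of RACK1 were below those of FAU and RPS27A, and the libraries of FAU were all above those of RPS27A.

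Along the WT gradient the mean share of the set was highest in the ribosomal subunit and monosome fractions and lowest in Polysome2. In WT replicate 3, however, it was highest in disome (9.27%, against 7.59% in 40S and 8.94% in 80S). The 40S libraries had 11.9, 10.1 and 7.59% of TPM (mean 9.84 ± 2.14%), those of 80S had 8.12, 8.78 and 8.94% (8.61 ± 0.44%), and those of disome had 4.55, 5.11 and 9.27% (6.31 ± 2.58%). Polysome1 had 4.55, 4.93 and 7.39% (5.62 ± 1.54%), and Polysome2 had 3.55, 3.21 and 5.54% (4.10 ± 1.26%). The 80S libraries all lay above the Input libraries and above the Polysome2 libraries, and the Input and Polysome2 libraries overlapped. No p is given for this sum.

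**Figure D1:**
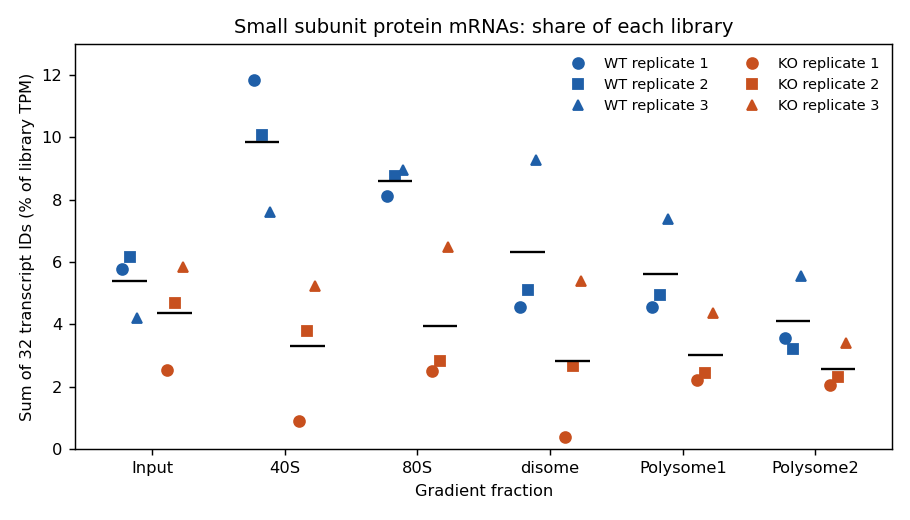
Sum of the TPM of the 32 transcript IDs as percent of each library (y axis), by fraction (x axis), for WT (blue) and KO (orange), with replicates 1 to 3 as circle, square and triangle and the mean of 3 libraries as a black bar. In 80S the 3 WT libraries sit between 8.12 and 8.94% and the KO libraries at 2.51, 2.83 and 6.48%.

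Against Input, single members moved in both directions in WT 40S. By limma with Benjamini-Hochberg adjustment, 3 of the 31 tested members were higher and 5 were lower at an adjusted p under 0.05, where 43.2% of all 51052 tested transcripts were called, 0.691% as higher and 42.5% as lower. The members' median log2 difference was -0.31, against -0.95 for all tested transcripts. Differences here and below are on the log2(TPM + 1) scale, which understates the change of low transcripts, and are given with their SE. RPS29 had 18322, 16229.8 and 27186 TPM in 40S, each library above every Input library (2.11 ± 0.76, adjusted p = 0.0259). RPS27 had 20043, 14182 and 17166 TPM (1.58 ± 0.58, adjusted p = 0.0294). RPS21, a small protein that contacts RPSA, had 7230.4, 6046 and 12428 TPM against 3219.8, 3535 and 2466 in Input (1.42 ± 0.56, adjusted p = 0.0391). All 3 were thus higher in 40S with no overlap between groups. In all, the groups did not overlap for 5 members higher in 40S (2.83% of all tested transcripts) and for 7 lower (57.2%).

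The 5 members that fell in 40S were mostly of low level. RACK1 had 1.96, 3.10 and 0 TPM in 40S (-3.30 ± 1.07, adjusted p = 0.0133). RPS23 had 0.372, 0.862 and 0.467 TPM (-2.43 ± 0.41, adjusted p = 3.33e-05). RPS3 ENST00000531188 had 2.48, 3.18 and 0.488 TPM (-1.84 ± 0.48, adjusted p = 0.00306). These IDs were near or under a few TPM, where a value rests on few reads. RPS27A (-1.73 ± 0.70, adjusted p = 0.0472) and RPS24, a protein needed for 18S rRNA maturation (-1.14 ± 0.45, adjusted p = 0.0402), fell from higher levels, RPS24 from 1945, 1981 and 1738 to 807, 953 and 811 TPM. The 40S result depends on the cultures and on the scaling. Without WT replicate 3, whose 40S library stands apart, RPS23 alone was called (24.3% of all tested transcripts), and without WT replicates 1 and 2 in turn 2 and 4 members were called (32.6% and 31.7%). With scaling by the median of ratios 18 members were higher and 1 lower, where 10.6% of all tested transcripts were higher and 20.7% lower. With ERCC spike-in scaling 0 members were higher and 7 lower, where 0.0294% and 28.8% of all were. With quantile normalization the split was 2 and 2, where 10.6% and 15.7% of all were called. RPS24, RPS27A and RPS3 ENST00000531188 turned positive with median-of-ratios scaling, the last also with quantile normalization, and RPS21 and RPS27 turned negative with ERCC scaling.

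WT 80S differed from Input in no member by limma after adjustment (2 of 31 at an unadjusted p under 0.05), where 22.4% of all tested transcripts were called (3.09% as higher and 19.4% as lower). Of all 51052 tested transcripts, 17449 were at an unadjusted p under 0.05. The members' median was 0.33 and that of all tested transcripts -0.33. Without overlap between the groups, 12 members were higher in 80S (12.6% of all tested transcripts) and 6 were lower (36.2%). The 12 include RPS15, RPS16, RPS27, RPS28 and RPS29, and the 6 are RPS6, RPS23, RPS24, RPS27A, FAU and RACK1. RPS27, for example, had 6399.7, 6722 and 4255 TPM in Input and 12467, 11588 and 13678 in 80S. The labels number the fractions of a culture alike, and with the culture as a block RPS23 and RACK1 were lower in 80S (adjusted p = 0.0141 and 0.00023), where 29.2% of all tested transcripts were lower and 6.86% higher.

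In WT Polysome2 against Input 1 member was called, RPS12, where 12.1% of all tested transcripts were called (3.28% as higher and 8.81% as lower). RPS12 had 4160.2, 4517 and 3121 TPM in Input and 829, 751 and 1419.7 in Polysome2 (-2.02 ± 0.59, adjusted p = 0.0222). Every Polysome2 library lay below every Input library. The call was lost without WT replicate 1 or 2 (adjusted p over the 6 left-out cultures 0.000728 to 0.296), and with ERCC scaling the difference turned to 1.90. With the culture as a block RPS12, RPS21, RPS27 and RPS29 were lower in Polysome2 (adjusted p = 0.00514, 0.0419, 0.0329 and 0.00956), where 14.4% of all tested transcripts were lower and 7.43% higher. With ERCC scaling 25 members were higher and 0 lower in this comparison, where 63.1% of all tested transcripts were higher and 1.23% lower, so that most members and most transcripts were called alike. In either direction the groups did not overlap for 7 lower members (24.5% of all tested transcripts) and 7 higher (15.4%). The lower ones are RPS2, RPS6, RPS12, RPS21, RPS27, RPS28 and RPS29, and the higher ones include RPS3 ENST00000531188, RPS14 ENST00000312037, RPS15, RPS15A, RPS27A and FAU.

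Members also differed between WT 80S and WT Polysome2. RPS29, RPS27, RPS12 and RPS21 fell from WT 80S to WT Polysome2, and RACK1 rose. These are 5 of 31 members, where 13.1% of all tested transcripts were called, 8.63% as higher and 4.44% as lower. The members' median was -0.36 and that of all tested transcripts 0.23. RPS29 had 8250.3, 8539 and 15352 TPM in 80S and 1174, 1156 and 1795 in Polysome2 (-2.93 ± 0.76, adjusted p = 0.0139). RPS27 had 12467, 11588 and 13678 TPM in 80S and 1626, 1447 and 3585 in Polysome2 (-2.62 ± 0.58, adjusted p = 0.0056). All 6 libraries of either member are separated by fraction, by a factor of several. RPS12 had 5019, 5039 and 7153 TPM in 80S and 829, 751 and 1419.7 in Polysome2 (-2.56 ± 0.59, adjusted p = 0.00707). RPS21 had 4672, 5482 and 9057 TPM in 80S and 1107, 991 and 1781 in Polysome2 (-2.30 ± 0.56, adjusted p = 0.00942). The 2 fractions of these 2 members did not overlap either.

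RACK1 went the other way, from 1.06, 4.83 and 1.53 TPM in 80S to 44.4, 41.0 and 27.0 in Polysome2 (3.59 ± 1.07, adjusted p = 0.0274), with its Polysome2 libraries overlapping its Input libraries. Its 80S values are low, so the ratio is imprecise. FAU had 126, 143 and 153 TPM in 80S and 561, 483 and 523 in Polysome2, without overlap, but did not pass the test (1.89 ± 0.96, adjusted p = 0.182). RPS27A had 45.8, 47.7 and 56.7 TPM in 80S and 179.9, 182 and 178 in Polysome2 (1.83 ± 0.70, adjusted p = 0.0793). In total the fractions did not overlap for 5 members that were higher in Polysome2 (30.6% of all tested transcripts) and for 10 that were lower (14%). The 10 are RPS2, RPS12, RPS14 ENST00000407193, RPS20, RPS21, RPS26, RPS27, RPS28, RPS29 and RPSA. RPS28, one of the smallest subunit proteins, had 304, 543 and 694 TPM in 80S and 94.6, 95.6 and 140.4 in Polysome2 (-2.16 ± 0.92, adjusted p = 0.112).

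With the culture as a block the same 5 members were called, and RPS14 ENST00000407193, RPS20 and RPS28 were lower and FAU and RPS27A higher as well (adjusted p = 0.0356, 0.0438, 0.00391, 0.00692 and 0.0169). That made 10 members, where 9.59% of all tested transcripts were lower and 22.5% higher. No member was called when WT replicate 1 or WT replicate 2 was left out (0.911% and 1.51% of all tested transcripts), and RPS12 and RPS27 alone were called without WT replicate 3 (3.01%), while the log2 difference of RPS29, for example, stayed between -2.99 and -2.85. Over the 6 cultures left out in turn, the adjusted p was 9.13e-05 to 0.145 for RPS29, 0.000366 to 0.113 for RPS27, 0.000195 to 0.116 for RPS12, 0.000277 to 0.129 for RPS21 and 8.56e-05 to 0.235 for RACK1. With ERCC scaling, which raises the median of all transcripts from 0.23 to 2.15, 7 members were higher and 0 lower (52.5% and 2.68% of all tested transcripts), and the log2 differences of the 4 falling members were -0.69 (RPS29), -0.39 (RPS27), -0.32 (RPS12) and -0.06 (RPS21). With median-of-ratios scaling 0 were higher and 8 lower (3.84% and 7.14% of all). The order of the members relative to each other, which is what the ratios by culture show, does not depend on a scaling factor common to a library.

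By culture, the TPM ratio of Polysome2 to 80S was 0.142, 0.135 and 0.117 for RPS29 in WT cultures 1, 2 and 3, 0.130, 0.125 and 0.262 for RPS27, 0.165, 0.149 and 0.198 for RPS12 and 0.237, 0.181 and 0.197 for RPS21. It was 4.46, 3.38 and 3.42 for FAU and 3.93, 3.82 and 3.14 for RPS27A. For RACK1 it was 41.9, 8.49 and 17.6. RPS28 came closest to the 4 low ratios, at 0.311, 0.176 and 0.202, while RPS4X, for example, had 0.554, 0.849 and 1.31 and RPS13 0.994, 0.926 and 1.60. The 2 IDs of RPS14 lay on opposite sides of 1, at 0.472, 0.281 and 0.688 for ENST00000407193 and 4.20, 2.53 and 2.0 for ENST00000312037, in all 3 cultures. Neither passed the test without the block (adjusted p = 0.177 and 0.422). RPS12, RPS21, RPS27 and RPS29 together made up 32.5 ± 0.97% of the TPM of the set in WT Input, 41.0 ± 8.42% in 80S and 14.1 ± 1.18% in Polysome2 (SD, n = 3). These 4 were grouped because they passed the test, so the shares are a description.

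**Figure D2:**
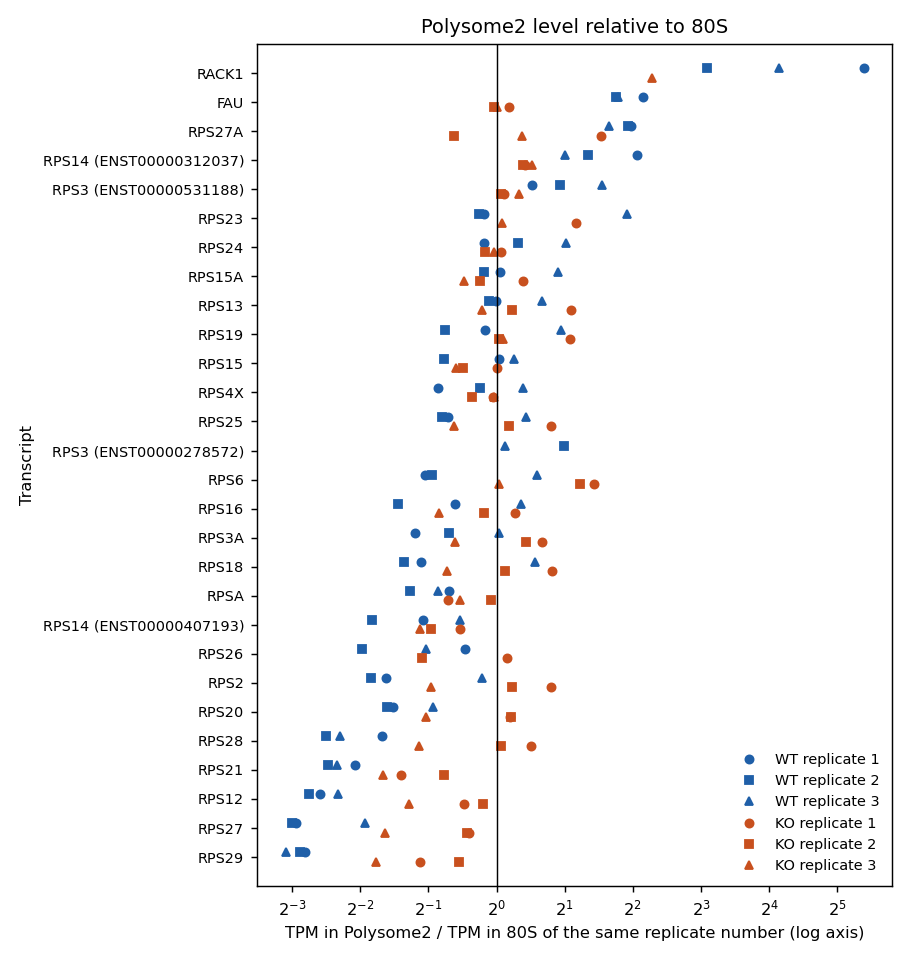
Ratio of the TPM in Polysome2 to the TPM in 80S of the same culture (x axis, log scale) for 28 of the 31 tested members (y axis, in the order of their WT values), in WT (blue) and KO (orange) replicates 1 to 3; the line marks a ratio of 1, and a ratio is drawn only where both values are at least 1 TPM. RPS29, RPS27, RPS12 and RPS21 lie at the bottom, with WT ratios between 0.117 and 0.262, and their KO ratios lie to the right, between 0.294 and 0.873.

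In WT disome and Polysome1 all libraries of these 4 members lay above their Polysome2 libraries. By Polysome1, RPS29, RPS27 and RPS12 were already below their 80S values in each WT culture, and RPS21 in cultures 2 and 3. RPS21 had 5225, 5599 and 12006 TPM in disome and 5232, 4611 and 7004 in Polysome1. RPS29 had 7518, 7602 and 17565 TPM in disome and 5075, 4639 and 9172 in Polysome1. RPS27 had 5155, 6922 and 14804 TPM in disome and 4926, 5961 and 10371 in Polysome1, and RPS12 had 2347, 3077 and 6923 TPM in disome and 1993, 2265 and 4100.5 in Polysome1. In all 4 members WT replicate 3 was the highest of the group in both fractions. FAU had 138, 167 and 198 TPM in disome and 185, 306 and 381 in Polysome1, and RPS27A had 104, 53.8 and 66.6 TPM in disome and 97.4, 92.3 and 123.1 in Polysome1. RACK1 had 6.45, 7.99 and 1.72 TPM in disome and 1.99, 5.58 and 10.4 in Polysome1. RACK1 thus stayed under its Input values in all libraries of these 2 fractions. RPS14 ENST00000312037 had 40S values of 60.8, 60.1 and 9.71 TPM, 80S values of 87.6, 122 and 175, disome values of 187, 219.6 and 229, Polysome1 values of 349, 422 and 357 and Polysome2 values of 367, 308 and 349.6. RPS14 ENST00000407193 had 40S values of 6478, 5389 and 3756 TPM, 80S values of 3424, 4524 and 4564, disome values of 2602, 3385 and 4507, Polysome1 values of 3959, 4523 and 5108 and Polysome2 values of 1615, 1270.0 and 3142. The first of these IDs was lowest in 40S and the second in Polysome2.

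The low IDs had the following values in WT. RPS3 ENST00000278572 had 40S values of 3.50, 2.87 and 0 TPM, 80S values of 3.84, 1.58 and 4.41, disome values of 1.98, 1.81 and 1.04, Polysome1 values of 1.47, 1.11 and 1.67 and Polysome2 values of 0.809, 3.13 and 4.82. RPS3 ENST00000531188 had 80S values of 7.58, 8.46 and 3.31 TPM, disome values of 6.42, 4.42 and 2.99, Polysome1 values of 4.91, 4.73 and 4.48 and Polysome2 values of 10.9, 16.1 and 9.68. Its Polysome2 libraries all lay above its 80S libraries. RPS26 had 40S values of 2.23, 3.30 and 2.24 TPM, 80S values of 2.37, 4.78 and 4.23, disome values of 4.56, 4.16 and 3.47, Polysome1 values of 2.97, 2.49 and 3.95 and Polysome2 values of 1.71, 1.22 and 2.07, with its Polysome2 libraries all below its 80S libraries. RPS23 had 80S values of 3.39, 3.69 and 1.96 TPM, disome values of 6.20, 3.07 and 3.26, Polysome1 values of 6.44, 4.93 and 4.83 and Polysome2 values of 2.98, 3.07 and 7.38, all above every 40S library.

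Between genotypes, the study asks how the transcriptome and its distribution on ribosomes change without RBPMS. In Input the set made up 2.52, 4.68 and 5.83% of TPM in KO replicates 1, 2 and 3 (mean 4.35 ± 1.68%), which overlaps the WT range of 4.21 to 6.15%. By limma 0 members were higher and 2 were lower, RACK1 and RPS23, where 20% of all tested transcripts were called (1.97% as higher and 18% as lower). The share of members called was thus under the background. The members' median was -0.87 and that of all tested transcripts -0.51. RACK1 had 0, 0 and 8.47 TPM in KO against 36.7, 14.9 and 18.5 in WT (-3.42 ± 1.07, adjusted p = 0.0232). RPS23 had 1.48, 2.10 and 3.77 TPM against 6.19, 6.39 and 10.1 (-1.33 ± 0.41, adjusted p = 0.021). Both were lower in all 3 KO libraries than in any WT library. Both calls were lost when any 1 culture other than KO replicate 3 was left out (adjusted p over the 6 4.11e-06 to 0.178 and 0.00294 to 0.142).

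The KO cultures did not lie together in Input. Relative to the WT mean, the median member stood at 31.3% in KO replicate 1, 63.5% in KO replicate 2 and 100.8% in KO replicate 3, and 13, 3 and 1 of the 31 members were under 25% of the WT mean. RPS2, a protein at the mRNA entry, had 115, 567 and 2996 TPM in KO against 3999.6, 4261 and 2913 in WT (-2.66 ± 1.54, adjusted p = 0.221). KO replicates 1 and 2 were far below all WT libraries for RPS2, and KO replicate 3 was within the WT range. RPS6, whose protein is the target of the S6 kinases, had 37.3, 188 and 612 against 655, 657 and 562 TPM. FAU had 38.9, 89.8 and 212 TPM and RPS27A 50.8, 101 and 119. Other members did not show this spread. RPS24 had 2472, 2639.6 and 2102 TPM in KO against 1945, 1981 and 1738 in WT, higher in every KO library but not past the test (0.34 ± 0.45, adjusted p = 0.611). RPS21 had 3467, 5264 and 4414 TPM (0.51 ± 0.56, adjusted p = 0.539), and RPS12 had 2603, 4351 and 4284, RPS27 3921, 5232 and 6095 and RPS29 3066, 5707 and 6007. The groups did not overlap for 4 lower members (RPS3 ENST00000278572, RPS14 ENST00000312037, RPS23 and RACK1; 29% of all tested transcripts) and 1 higher member, RPS24 (6.13%).

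**Figure D3:**
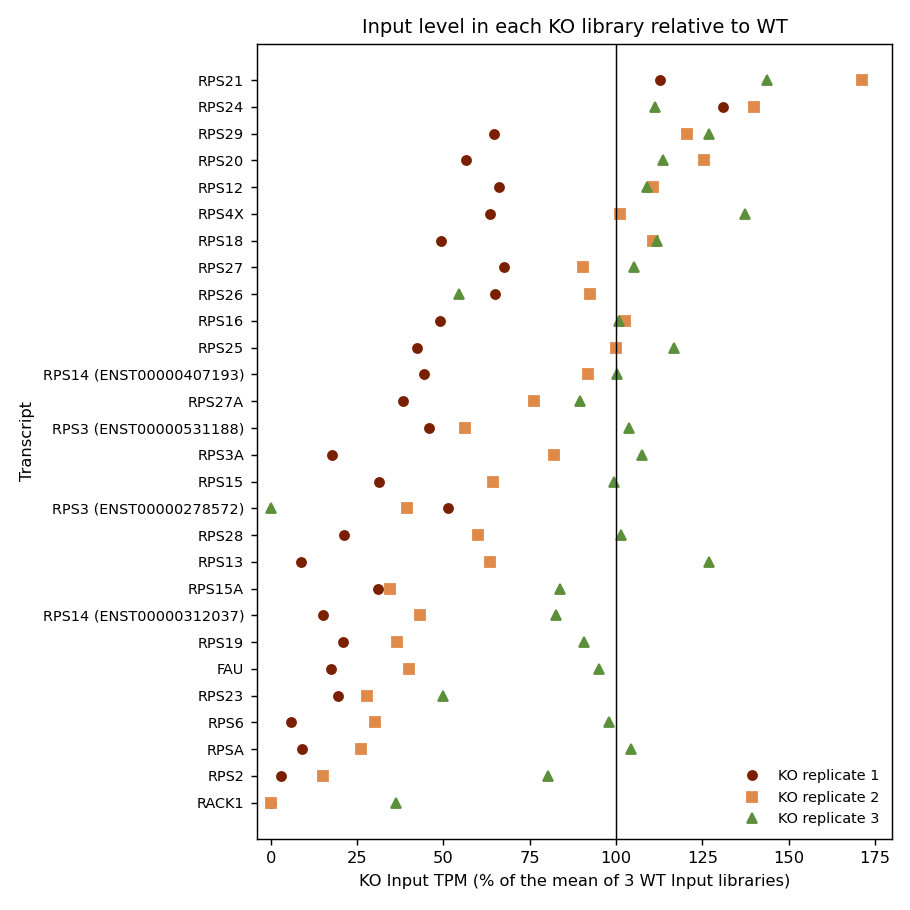
Input TPM of each KO library as percent of the mean of the 3 WT Input libraries (x axis) for 28 of the 31 tested members (y axis), with KO replicates 1, 2 and 3 as dark circle, orange square and green triangle and a line at 100%. Over all 31 the medians are 31.3, 63.5 and 100.8%, and RACK1 (listed at 0 in replicates 1 and 2), RPS2 and RPS6 have the lowest values drawn for replicate 1.

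Leaving out KO replicate 3 raised the number of lower members in Input to 10 of 31 (38% of all tested transcripts), among them RPS2, RPS6, RPS15A, RPS19, RPS23, RPSA, FAU and RACK1. Without KO replicates 1 and 2 together, 0 members were called and the median was 0.03, with the lone KO library assumed to vary like the other groups. The knockout state and whatever separates the KO cultures cannot be told apart for these members.

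In the KO fractions the set's share was lower on average than in WT in each fraction, and the KO cultures were again apart. The KO values for replicates 1, 2 and 3 were 0.904, 3.79 and 5.24% for 40S, 2.51, 2.83 and 6.48% for 80S, and 0.391, 2.67 and 5.40% for disome. The last fractions had 2.22, 2.42 and 4.36% in Polysome1 and 2.05, 2.29 and 3.39% in Polysome2. In 40S, 80S and Polysome1 all KO libraries lay below all WT libraries, and in disome and Polysome2 the genotypes overlapped. In 40S, 0 members were called by limma (11 at an unadjusted p under 0.05), where 0.0235% of all tested transcripts were called (0.0137% as higher and 0.00979% as lower), and in 80S 0 were called (10 at an unadjusted p under 0.05), where 0.599% were, 0.0627% as higher and 0.537% as lower. Of all 51052 tested transcripts, 2886 in 40S and 8576 in 80S were at an unadjusted p under 0.05. The members' medians were -1.22 in 40S and -1.30 in 80S, against 0.00 and -0.17 for all tested transcripts. In 80S the genotypes did not overlap for 12 members, all lower in KO (12.8% of all tested transcripts; 7.09% were higher). In 40S they did not overlap for RPS21, RPS27 and RPS29, lower in KO (2.7%), and for RPS26, higher (8.99%). RPS29 had 991, 7134 and 9184 TPM in KO 40S and 2198, 2752 and 5936 in KO 80S. RPS27 had 1635, 4873 and 7247 TPM in 40S and 4536, 4017 and 9395 in 80S. RPS12 had 773, 2920.4 and 1989 TPM in 40S and 1817, 1824 and 2337 in 80S. In 80S all 9 of these KO values were below the 80S values of the same gene in WT. With median-of-ratios scaling 15 members were called in 40S, all lower, where 3.44% of all tested transcripts were lower and 1.18% higher. ERCC scaling, which moves the median of all tested transcripts to -1.43 for 80S, -2.02 for disome, -3.01 for Polysome1 and -3.40 for Polysome2, gave 26, 30, 31 and 31 lower members in these fractions. Of all tested transcripts 23.9%, 53.3%, 76.2% and 76.1% were lower there with this scaling.

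Of the 6 fractions, disome held the most members called between genotypes. RPS29, RPS12 and RPS21 were lower in KO, 3 of 31 members, where 2.78% of all tested transcripts were called (0.0411% as higher and 2.74% as lower). The members' median was -1.75 and that of all tested transcripts -0.45. RPS29 had 232, 2767 and 4559.5 TPM in KO against 7518, 7602 and 17565 in WT (-2.81 ± 0.76, adjusted p = 0.0436). RPS12 had 180.2, 1711 and 1804 against 2347, 3077 and 6923 (-2.16 ± 0.59, adjusted p = 0.0449). RPS21 had 412, 2929 and 3923 against 5225, 5599 and 12006 (-2.07 ± 0.56, adjusted p = 0.0422). In all 3 the KO and WT libraries did not overlap, and KO replicate 1, the library with 70.5% of its TPM in 10 transcripts, was far below the other 2. Without that culture, none was called (log2 differences -1.49, -1.07 and -1.06), and leaving out any other culture but KO replicate 3 also ended the calls. In all, 10 members did not overlap, all of them lower (13% of all tested transcripts; 1.14% were higher).

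In Polysome1 0 members were called by limma (7 at an unadjusted p under 0.05), where 5.42% of all tested transcripts were called (1.58% as higher and 3.84% as lower), and the median was -0.93 against -0.32. Of all 51052 tested transcripts, 14312 were at an unadjusted p under 0.05 in Polysome1. In Polysome2 RACK1 alone was called, where 5.52% of all tested transcripts were called, 1.9% as higher and 3.62% as lower, with a median of -0.84 against -0.22. RACK1 had 0, 0 and 23.9 TPM in KO Polysome2 against 44.4, 41.0 and 27.0 in WT (-3.69 ± 1.07, adjusted p = 0.041). It was listed at 0 in KO replicate 1 in all 6 fractions, and in KO replicate 2 in 4 of them. In KO replicate 3 it had 8.47 TPM for Input, 4.72 for 40S, 4.92 for 80S, 4.21 for disome and 6.65 for Polysome1. The call was lost without any 1 culture other than KO replicate 3 (adjusted p over the 6 1.54e-06 to 0.295). Without KO replicates 1 and 2 together it was lost as well. The groups did not overlap for 14 members in Polysome2, all lower (13.8% of all tested transcripts; 9.86% were higher), among them RPS13, RPS15, RPS27A and FAU. RPS29 had 947, 1895 and 3410.3 TPM in KO Polysome1, RPS27 had 4319.9, 3226 and 4717 and RPS12 had 1133, 1528 and 1546, all below every WT library. In Polysome1 13 members were lower without overlap (19.6%) and 3 were higher (9.17%), which are RPS3 ENST00000531188, RPS4X and RPS24.

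RPS24 and RPS4X, the X-linked copy of RPS4, stood at the other end from RPS2. RPS24 had 4078, 1666 and 1428 TPM in KO Polysome1 against 1086, 943 and 1215 in WT (0.99 ± 0.45, adjusted p = 0.15), and RPS4X had 1007, 1197 and 1237 against 557, 655 and 565 (0.95 ± 0.56, adjusted p = 0.26). Neither passed the test, although every KO library was above every WT library. RPS2 had 113, 290.2 and 4773 TPM in KO 80S against 6081, 7287 and 3138 in WT 80S. RPS6 had 10.4, 15.96 and 304 TPM in KO 80S against 468, 476 and 298 in WT 80S. KO replicates 1 and 2 were far below WT for both genes. RPS2 and RACK1 were under 25% of the WT mean in KO replicates 1 and 2 in all 6 fractions. RPS4X was at least 50% of it in 4 fractions in KO replicate 1 and in 6 in KO replicates 2 and 3.

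**Figure D4:**
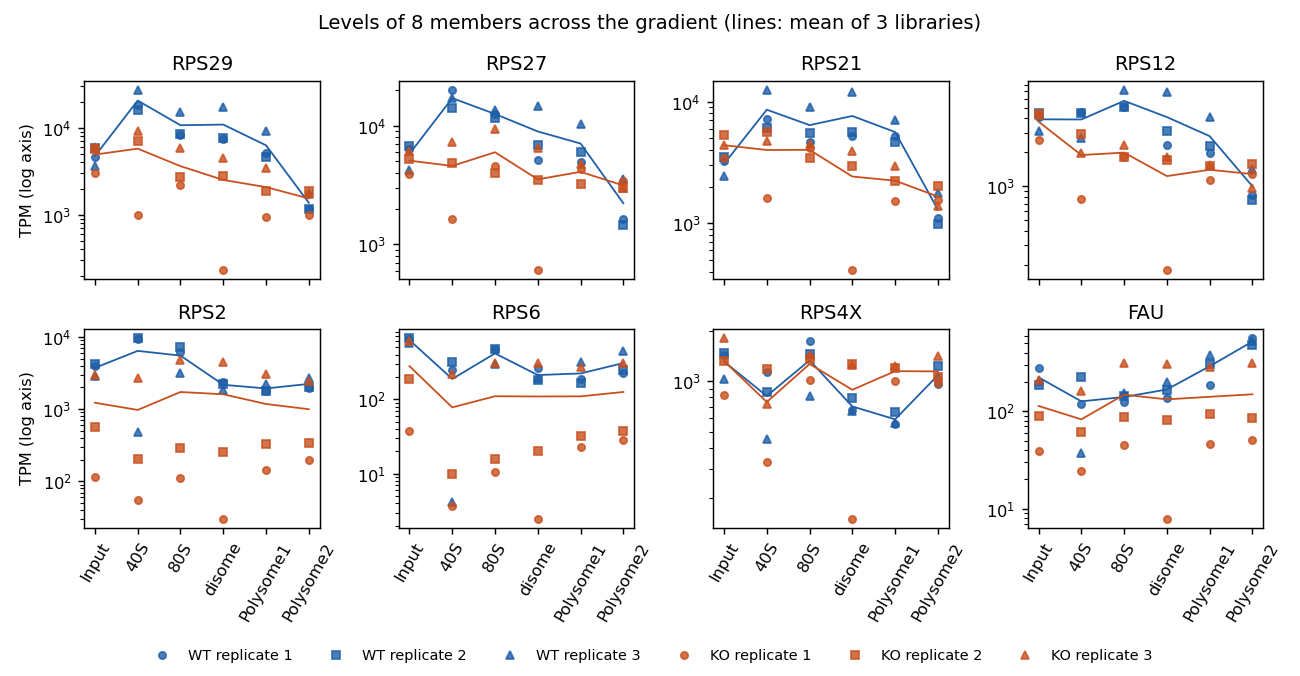
TPM (y axes, log scale) of 8 members by fraction (x axes) in WT (blue) and KO (orange), with replicates 1 to 3 as circle, square and triangle and lines through the mean of 3 libraries. RPS29, RPS27, RPS21 and RPS12 drop from Polysome1 to Polysome2 in WT, RPS2 and RPS6 are low in KO replicates 1 and 2, RPS4X overlaps between genotypes in most fractions, and FAU is highest in WT Polysome2, at 483 to 561 TPM.

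The other members printed in full for WT had the following KO values. FAU had 40S values of 24.5, 61.0 and 163 TPM, 80S values of 45.2, 86.9 and 313, disome values of 7.92, 81.5 and 309, Polysome1 values of 46.6, 94.4 and 282 and Polysome2 values of 51.1, 84.9 and 313. In Polysome2 all were below the lowest WT library. RPS27A had 40S values of 18.6, 134 and 29.0 TPM, 80S values of 36.7, 128 and 73.4, disome values of 10.3, 117 and 54.5, Polysome1 values of 84.2, 92.8 and 92.4 and Polysome2 values of 107, 82.7 and 94.7. RPS23 had 40S values of 0.368, 0.727 and 0.296 TPM, 80S values of 1.01, 0.991 and 2.94, disome values of 0.372, 1.89 and 2.49, Polysome1 values of 1.25, 2.95 and 3.56 and Polysome2 values of 2.25, 2.35 and 3.10. RPS23 was below the WT range in all disome and Polysome1 libraries. RPS14 ENST00000312037 had Input values of 21.9, 62.5 and 119 TPM, 40S values of 4.0, 31.9 and 141, 80S values of 12.5, 41.4 and 156, disome values of 1.68, 44.0 and 184, Polysome1 values of 29.5, 50.9 and 220.2 and Polysome2 values of 16.6, 54.2 and 225. RPS14 ENST00000407193 had Input values of 1234, 2557 and 2793 TPM, 40S values of 936, 4086 and 2858, 80S values of 1258, 2187 and 2594, disome values of 256, 1649.5 and 2299, Polysome1 values of 869.9, 1254 and 2146 and Polysome2 values of 871, 1121 and 1188. In both IDs KO replicate 1 was the lowest of the group in every fraction. RPS3 ENST00000531188 had Input values of 4.11, 5.05 and 9.30 TPM, 40S values of 4.45, 6.83 and 2.70, 80S values of 5.09, 4.69 and 7.17, disome values of 0.910, 5.22 and 6.47, Polysome1 values of 5.21, 6.81 and 7.04 and Polysome2 values of 5.46, 4.90 and 9.0. RPS3 ENST00000278572 had at most 2.81 TPM in any KO library, and RPS26 at most 5.49.

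Without KO replicate 3 the count of lower members rose in each fraction: to 8 for 40S (0.744% of all tested transcripts), 12 for 80S (16.8%), 22 for disome (28.2%), 15 for Polysome1 (27.3%) and 12 for Polysome2 (25.3%). RPS2 was among the lower members in all of these fractions and in Input. Without KO replicate 1 or KO replicate 2, or both, 0 were called by limma in every fraction. With both left out, the medians were -0.28 for 40S, -0.23 for 80S, -0.09 for disome, -0.21 for Polysome1 and -0.36 for Polysome2.

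Within KO, Polysome2 against 80S gave 0 called members by limma (1 at an unadjusted p under 0.05, RPS21), where 1.45% of all tested transcripts were called (1.4% as higher and 0.049% as lower), with a median of -0.05 against 0.14. Of all 51052 tested transcripts, 4479 were at an unadjusted p under 0.05. RPS29 had 2198, 2752 and 5936 TPM in KO 80S and 1004, 1884 and 1744 in KO Polysome2 (-1.15 ± 0.76, adjusted p = 0.838). RPS27 had 3431, 2965 and 3009.6 TPM in Polysome2 (-0.83 ± 0.58, adjusted p = 0.871). RPS12 had 1298, 1591 and 959 (-0.66 ± 0.59, adjusted p = 0.966). Without overlap between the fractions, 5 members were lower in Polysome2: RPS12, RPS14 ENST00000407193, RPS21, RPS27 and RPS29 (1.51% of all tested transcripts), and 0 were higher (8.21%). By culture the KO ratio of Polysome2 to 80S was 0.457, 0.684 and 0.294 for RPS29, 0.756, 0.738 and 0.320 for RPS27, 0.714, 0.873 and 0.410 for RPS12 and 0.378, 0.585 and 0.314 for RPS21, each KO value above each WT value of the same gene. For FAU it was 1.13, 0.977 and 1.0, each below each WT value, and for RPS27A 2.90, 0.647 and 1.29, also below. Other members were separated in this ratio too. RPS28 had 1.42, 1.05 and 0.455, above its WT values, and RPS14 ENST00000312037 and RPS3 ENST00000531188 were below theirs. The share of all tested transcripts separated in this way was not computed, so the separation is a description.

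The difference between genotypes in this step was tested itself, as an interaction term. By limma 0 of 31 members were called (3 at an unadjusted p under 0.05), where 0.0901% of all tested transcripts were called (0.0313% as higher and 0.0588% as lower). Of all 51052 tested transcripts, 4551 were at an unadjusted p under 0.05. The members' median was 0.31 and that of all tested transcripts -0.06. The differences were 1.90 ± 0.84 for RPS12 (adjusted p = 0.494), 1.80 ± 0.83 for RPS27 (adjusted p = 0.523), 1.78 ± 1.08 for RPS29 (adjusted p = 0.662) and 1.01 ± 0.79 for RPS21 (adjusted p = 0.752). They were -1.84 ± 1.36 for FAU (adjusted p = 0.738) and -3.10 ± 1.51 for RACK1 (adjusted p = 0.558). With the culture as a block RACK1 was called (-3.10, adjusted p = 0.0348), 1 of 31 members, where 2.19% of all tested transcripts were called. RPS12, RPS27, RPS29 and RPS21 were not (adjusted p = 0.152, 0.167, 0.164 and 0.414). For these 4 members the call of a fall in WT and its absence in KO is therefore not shown to be a difference between genotypes. RACK1 also passed the test without KO replicate 3 (-3.89, adjusted p = 0.0179) and with ERCC scaling (-5.26, adjusted p = 0.046). Its KO values are mostly 0, and a transcript listed at 0 cannot show a change between fractions. In KO replicate 3 it rose as in WT, from 4.92 TPM in 80S to 23.9 in Polysome2 (ratio 4.86). The calls of RACK1 are thus not shown to be a genotype difference in this step either. RPS12, RPS21, RPS27 and RPS29 made up 42.5 ± 8.24% of the TPM of the set in KO 80S and 35.7, 36.9 and 21.0% in KO Polysome2, where the WT Polysome2 libraries had 13.3, 13.6 and 15.5%. In KO Input they made up 51.7, 43.9 and 35.7%, all above the 31.8 to 33.6% of WT Input. These 4 were grouped because they were called lower in WT Polysome2 than in WT 80S. A low share in WT Polysome2 was thus built into the choice, and the contrast with KO is no test. Such a share also depends on the levels of the other members.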

How the data were processed

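RNA-seq of 36 libraries was used (2 genotypes, 6 fractions, 3 replicates), mapped by their labels; 0 table columns were left unmapped. The deposited table holds TPM per Ensembl transcript, and the authors used kallisto and sleuth with the build hg19, per the submitters' processing notes, which give no versions. kallisto shares reads among similar transcripts, so values of near-identical copies can be split. TPM keeps no read counts, so the depth is unknown and counting error could not be given. The precision rests on 3 libraries per group.

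The 92 ERCC spike-in rows were left out of the tests. Transcripts reaching 1 TPM in 3 or more libraries (51052) were tested on log2(TPM + 1) with limma 3.58.1 in R 4.3.3 (lmFit, eBayes with trend), as 12 group means over 36 libraries with 24 residual degrees of freedom, which treats the fractions of one culture as independent. P-values were adjusted by Benjamini-Hochberg over all tested transcripts at 0.05. Values are mean ± SD over libraries or log2 difference ± SE. On data simulated for KO against WT Input over 51052 transcripts, this test recovered 41% of 100 transcripts changed by 3 on the log2 scale and 73% of 100 changed by 5. The simulation gave a transcript the same SD in all 12 groups, drew libraries independently and changed only transcripts of higher level. A wider spread among KO cultures, or effects shared by a culture, were not simulated, so the recovery in the real data may differ. Start regions came from RefSeq sequences of GRCh38.p14.

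The members, the lists and the tests were chosen with earlier results of these data known. Named were the 3 highest and 3 lowest members in WT Input, up to 2 called members per direction and comparison, both IDs of RPS3 and RPS14, RACK1, FAU and RPS27A; RPS2, RPS4X, RPS6, RPS13, RPS24 and RPS28, and further called members, were added after their values were seen. Alternatives were the pseudocount, the filter, 3 normalizations, fewer groups, a block and left-out cultures. The block was the culture in comparisons of fractions and in the genotype difference of Polysome2 relative to 80S. It was the replicate number in KO against WT. Within a genotype the labels give the fractions of a culture the same number (WT1, KO1), which was taken as the pairing. Their deviations correlated at 0.64, 0.52 and 0.77 between KO Polysome2 and KO 80S and at 0.03 to 0.21 between WT fractions. The block left the count of called members at 0 for KO Polysome2 against 80S. Some members are counted in the sums but are not reported by name here.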

Additional observations from a re-analysis of the deposited data

How the results depend on the processing

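Counts here are members called of 31 (27 with the filter of 10 TPM) by limma, and no cause of a change was tested. A count with no calls of all tested transcripts beside it, here or above, is no result about the members. With a pseudocount of 0.1 WT 40S against Input gave 5, and KO against WT gave 0 in Input, 0 in disome and 0 in Polysome2. Of all tested transcripts 42.9% were called for WT 40S, and 12.9%, 0.341% and 2.27% in these KO comparisons. A filter of 10 TPM gave 4 for WT 40S against Input, 1 for KO against WT in Input and 1 in disome. Of 14905 transcripts tested then, 272 were higher and 6206 lower for WT 40S. For KO against WT these were 603 and 1028 in Input and 6 and 506 in disome. Without a filter the members called were 4 for WT 40S against Input, and for KO against WT 0 in disome and 0 in Polysome2. Of 175737 transcripts tested then, 444 were higher and 37841 lower for WT 40S. For KO against WT these were 79 and 1260 in disome and 496 and 1192 in Polysome2. Quantile normalization gave 4 for WT 40S and 4 for WT Polysome2 against Input, and for KO against WT 1 in Input, 1 in 80S, 6 in Polysome1 (1 higher, 5 lower) and 0 in Polysome2. Median-of-ratios scaling gave 19 for WT 40S and 7 for WT 80S against Input, 8 for WT Polysome2 against 80S, and for KO against WT 1 in Input, 15 in 40S, 0 in disome and 0 in Polysome2. Of all tested transcripts, 5413 were higher and 10584 lower for WT 40S, and 3108 and 6401 for WT 80S. For WT Polysome2 against 80S these were 1960 and 3646. For KO against WT they were 1385 and 6200 in Input and 604 and 1754 in 40S. They were 12 and 69 in disome and 328 and 1103 in Polysome2. ERCC scaling gave 25 for WT Polysome2 against Input, and for KO against WT 8 in Input, 26 in 80S, 30 in the disome fraction, 31 in Polysome1, 31 in Polysome2 and 1 in the genotype difference of Polysome2 relative to 80S. Of all tested transcripts, 32209 were higher and 626 lower for WT Polysome2 against Input. For KO against WT these were 11 and 6898 in Input, 47 and 12194 in 80S and 108 and 27194 in disome. They were 243 and 38888 in Polysome1, 152 and 38857 in Polysome2 and 186 and 5951 in the genotype difference. ERCC transcripts made up 0.000255 to 0.000941% of TPM in WT Polysome2 and 0.00478 to 0.0579% in KO Polysome2. It moved the median of all tested transcripts from -0.15 to 2.57 in WT Polysome2 against Input and from -0.22 to -3.40 in KO against WT Polysome2.

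Fitting only the groups compared gave 4 for WT 40S, 5 for WT 80S and 6 for WT Polysome2 against Input, 9 for WT Polysome2 against 80S, and for KO against WT 0 in Input, 0 in disome and 0 in Polysome2. Of all tested transcripts, 669 were higher and 24170 lower for WT 40S, and 3702 and 13134 for WT 80S. For WT Polysome2 these were 3966 and 5442 against Input and 9678 and 4092 against 80S. For KO against WT they were 5 and 35 in Input, and 0 and 0 in disome and in Polysome2. With the culture as a block the counts were 12 for WT 40S, 2 for WT 80S and 4 for WT Polysome2 against Input. WT Polysome2 against 80S gave 10, and the genotype difference of Polysome2 relative to 80S gave 1 (RACK1, adjusted p = 0.0348). Of all tested transcripts, 758 were higher and 27233 lower for WT 40S. With the replicate number as a block KO against WT gave 2 in Input, 0 each in 40S and 80S, 7 in disome and 1 each in Polysome1 and Polysome2. Of all tested transcripts, 1361 were higher and 10483 lower in Input, 16 and 8 in 40S and 206 and 839 in 80S. These were 49 and 3068 in disome, 1675 and 3995 in Polysome1 and 1789 and 3511 in Polysome2. The correlations of same-numbered deviations were -0.71 to 0.11 between genotypes, where the samples share only a number.

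Without KO replicates 1 and 2 together, WT 80S against Input gave 3, WT Polysome2 against Input 3 and WT Polysome2 against 80S 11. Of all tested transcripts, 3286 were then higher and 12852 lower for WT 80S against Input. For WT Polysome2 these were 3375 and 5427 against Input and 9831 and 4172 against 80S. The KO share of the set was then 6.48% of TPM for 80S, 5.40% for disome, 4.36% for Polysome1 and 3.39% for Polysome2. Leaving out 1 culture at a time gave 1 to 10 for WT 40S, 0 to 4 for WT 80S and 0 to 4 for WT Polysome2 against Input. It gave 0 to 9 for WT Polysome2 against 80S and 0 for KO Polysome2 against 80S. Of all tested transcripts, 126 to 588 were higher and 12266 to 25695 lower for WT 40S. These were 406 to 2816 and 3921 to 13675 for WT 80S. For WT Polysome2 they were 465 to 3049 and 2286 to 6573 against Input, and 302 to 10036 and 163 to 4223 against 80S. For KO Polysome2 against 80S they were 186 to 503 and 4 to 94. For KO against WT the counts were 0 to 10 for Input, 0 to 8 for 40S, 0 to 12 for 80S and 0 to 22 for disome. They were 0 to 15 for Polysome1, 0 to 12 for Polysome2 and 0 to 1 in the genotype difference of Polysome2 relative to 80S. Of all tested transcripts, 239 to 3608 were higher and 3063 to 19382 lower in Input. These were 0 to 861 and 2 to 380 in 40S, 1 to 3118 and 9 to 8582 in 80S, and 0 to 965 and 24 to 14417 in disome. They were 7 to 4655 and 20 to 13957 in Polysome1 and 92 to 4593 and 157 to 12922 in Polysome2. In the genotype difference they were 0 to 550 and 0 to 921.

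Of 297 alternative values of the 20 called tests, 165 kept direction and call, 125 kept the direction and lost the call, and 7 changed sign. In WT 40S against Input these were RPS3 ENST00000531188 (0.00653 with quantile normalization, 0.14 with median-of-ratios scaling), RPS27A (0.88) and RPS24 (1.51), both with median-of-ratios scaling, and RPS21 (-0.42) and RPS27 (-0.26), both with ERCC scaling. In WT Polysome2 against Input it was RPS12 (1.90 with ERCC scaling). A planned comparison of levels with protein length was not run, since protein lengths were not analysed here.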

Other observations

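Across the 31 tested members, the log2(TPM + 1) values of KO replicate 3 correlated with the WT mean of the same fraction at r between 0.983 and 0.997, those of KO replicate 2 at 0.913 to 0.962 and those of KO replicate 1 at 0.879 to 0.920. KO replicates 1 and 2 correlated with each other at 0.972 to 0.983. These are descriptions across genes, which are not independent replicates and share library and scale. RPS21, RPS12, RPS27 and RPS29 made up 78.3% of the TPM of the set in WT 40S replicate 3, against 42.3 and 40.6% in the other 2 WT 40S libraries, and RPS2 had 490 TPM there against 9194 and 9502.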
